A study of Homo sapiens with 3 samples.

Results

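The zinc finger genes of human chromosome 19 were described here in HCT-116 cells transfected with anti-APC siRNA and in cells given no siRNA. Members were all rows of the deposited expression table with a symbol made of ZNF and a number, with at most 1 letter after it, and a locus on chromosome 19. The rule found 246 members among 23131 rows, and measured values played no part in it. A further 283 rows with such a symbol lay on other chromosomes, and 1354 other rows lay on chromosome 19.

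HCT-116 is a colon carcinoma cell line with wild-type APC and a CTNNB1 allele that lacks the codon for Ser45 of β-catenin, and all libraries came from it. The study compared an siRNA pool against APC with a scrambled pool and with no siRNA. Each was given in 2 rounds, and RNA was taken 48 hours after the second round. The library without siRNA is titled untransfected, while its protocol describes a mock transfection. It is called the untransfected library below. Each condition had 1 library, so no difference below has a replicate check and none was tested. The library with scrambled siRNA was not analysed here, so that effects of any siRNA and effects of less APC cannot be told apart.

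C2H2 zinc finger proteins form the largest family of human transcription factors, and tandem duplication placed a large part of the family in clusters on chromosome 19. Each finger holds a zinc ion with a pair of cysteines and a pair of histidines, and an array of fingers reads a stretch of DNA. Many members also carry a KRAB A box, a short domain near the amino terminus that binds TRIM28 (KAP1), which recruits SETDB1, HP1 proteins and other makers of silent chromatin. Well-studied KRAB zinc finger proteins silence transposable elements.

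Levels were FPKM, sequenced fragments scaled by transcript length and by the size of the library. APC, the targeted gene, had 9.15 FPKM in the untransfected library and 3.43 FPKM with anti-APC siRNA, a log2 ratio of -1.41. Of 9 markers of colon epithelium, 6 had a mean of at least 1 FPKM, EPCAM at 190 and 170 FPKM and KRT8 at 588 and 478 FPKM among them, and all 6 were lower with anti-APC siRNA. VIL1, CDX1 and LGALS4, also markers of differentiated colon epithelium, were at 0 in 1 library and at most 0.0673 FPKM in the other. Of the markers of other cells, PTPRC and PECAM1 were at most 0.0148 FPKM in both libraries, COL1A1 had 2.85 and 3.08 FPKM, and VIM had 1.35 and 2.17 FPKM. The smallest steps between FPKM values put the libraries at about 25000000 and 22900000 mapped reads.

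Most chromosome 19 zinc finger genes were at low levels. The median of the mean of both libraries was 1.80 FPKM over the 246 members, and 22 members had 10 FPKM or more. In both libraries 24 members were listed at 0, and 18 more were listed at 0 in 1 library and at no more than 0.0562 FPKM in the other. Of the 204 members above 0 in both libraries, 62 had a mean below 1 FPKM, and 142 (57.7% of all members) had a mean of at least 1 FPKM. Of all 23131 rows, 12063 (52.2%) met the same condition. The condition uses the mean of both libraries, and ratios are given for these 142 members, called the measured members below, unless stated.

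The measured members were mostly somewhat higher with anti-APC siRNA, whereas most genes of the table were somewhat lower. Of the 142 measured members, 109 (76.8%) were higher with anti-APC siRNA and 33 were lower, while 41.4% of all 12063 rows were higher. The median log2 ratio of anti-APC siRNA over untransfected was 0.24 for the members, with quartiles of 0.01 and 0.36, and -0.05 for all rows. It was 0.02 for 213 zinc finger genes on other chromosomes and -0.16 for 688 other genes on chromosome 19. Summed over the 142 members, expression went from 837 FPKM to 942 FPKM, 1.13 times as much. The same sum was 1.04 times as much over all rows. It was 1.03 times as much over zinc finger genes on other chromosomes and 0.95 times over other genes on chromosome 19.

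**Figure D1:**
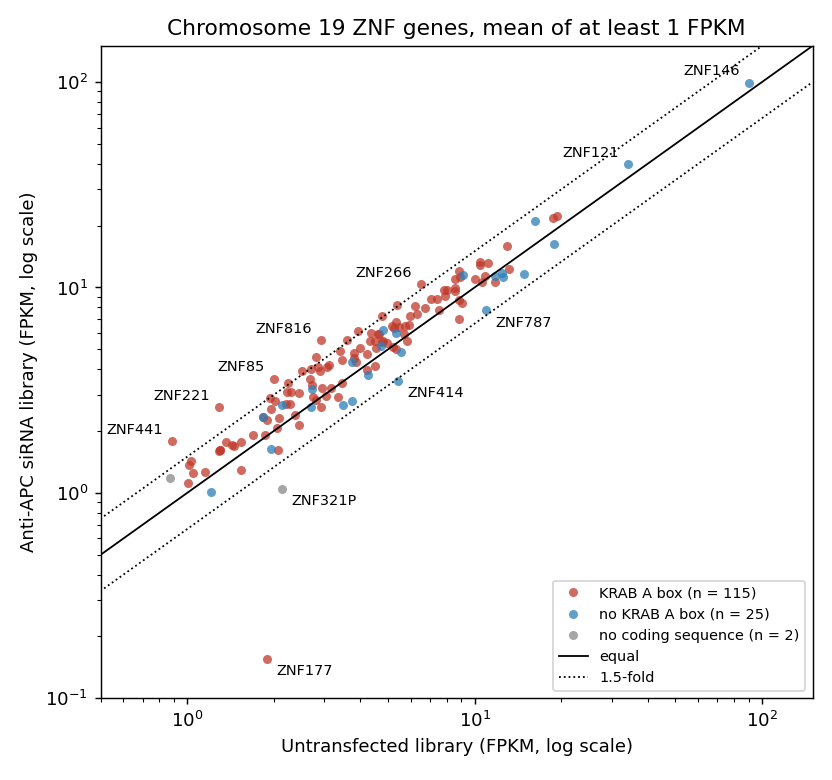
FPKM of the 142 chromosome 19 zinc finger genes with a mean of at least 1 FPKM, untransfected library on the x axis and anti-APC siRNA library on the y axis, both on log scales, coloured by KRAB A box. Most points lie a little above the solid line of equal levels, 12 lie on or above the upper dotted line of 1.5-fold, and 3 (ZNF177, ZNF321P and ZNF414) lie below the lower one.

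Single members differed by small amounts. At least 1.5-fold higher were 12 members (8.45%), against 2.56% of all rows, and at least 1.5-fold lower were 3 members (2.11%), against 6.61% of all rows. Higher by at least 25% were 50 members (35.2%), against 7.17% of all rows, and lower by at least 20% were 9 (6.34%), against 18.4%. At least 2-fold higher were 2 members (1.41%), against 0.953% of all rows, and at least 2-fold lower were 2 members (1.41%), against 1.37%. The shares of members and of all rows were thus far apart at a difference of 25% and close to each other at 2-fold.

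The level of expression itself went with the ratio, so each member was set beside the 200 other genes nearest to it in mean FPKM. The member was above the median log2 ratio of those genes in 119 of 142 cases and below it in 23, and the median difference was 0.36. Between 1 and 2 FPKM the median log2 ratio was 0.21 for 23 members and -0.23 for other genes. Between 2 and 4 FPKM it was 0.31 for 40 members and -0.17 for other genes, and between 4 and 8 FPKM 0.24 for 46 members and -0.11 for other genes. The members thus lay above other genes throughout the range in which they were measured. At 16 FPKM or more only 6 members remained, with a median of 0.21 beside -0.01. Below the limit of 1 FPKM 31 of the 62 members were higher and 31 lower, with a median log2 ratio of 0.00. Under 0.5 FPKM the median was 0.05 for 54 members and -0.13 for other genes, and from 0.5 to 1 FPKM it was -0.19 for 8 members and -0.24 for other genes, so the distance from other genes was smaller there than above 1 FPKM.

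**Figure D2:**
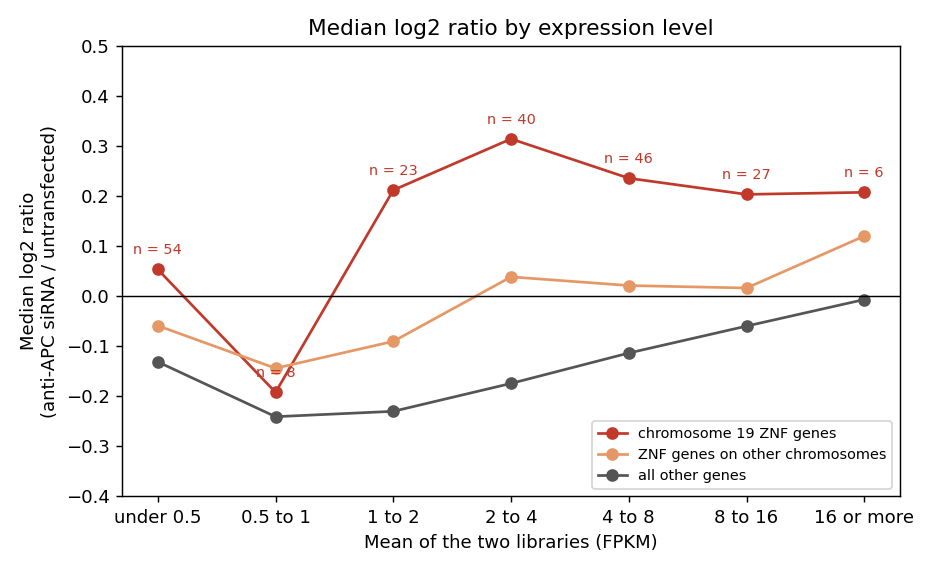
Median log2 ratio (anti-APC siRNA over untransfected) in ranges of the mean FPKM of the pair of libraries, for chromosome 19 zinc finger genes (red, with the number of genes), zinc finger genes on other chromosomes (orange) and all genes outside chromosome 19 zinc finger genes (grey). From 1 FPKM upward the red points lie between 0.20 and 0.31, and the grey points rise from -0.23 to -0.01.

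The 5 highest members were genes with and without a KRAB A box. ZNF146, which encodes a protein made almost wholly of fingers and is known to be overexpressed in colon tumours, was the highest at 90.1 FPKM without siRNA and 99.5 FPKM with anti-APC siRNA, a log2 ratio of 0.14, at a locus that it shares with the far lower ZNF565. ZNF121 followed at 34.2 and 39.9 FPKM (log2 ratio 0.22), and like ZNF146 and ZNF83 it has no KRAB A box. ZNF544 had 19.3 and 22.2 FPKM (0.20), ZNF317 had 18.8 and 21.8 FPKM (0.21), and ZNF83 had 16.2 and 21.1 FPKM (0.38). All 5 were higher with anti-APC siRNA, and the 95% counting intervals of their log2 ratios, from 0.10 to 0.19 for ZNF146 and from 0.29 to 0.47 for ZNF83, lay above 0. Such intervals rest on read numbers estimated from the FPKM steps and cover counting error only.

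ZNF221 and ZNF441 were at least 2-fold higher with anti-APC siRNA. ZNF221 had 1.29 FPKM without siRNA and 2.62 FPKM with it, a log2 ratio of 1.02 with a counting interval of 0.62 to 1.42, from about 77.1 and 143 reads. ZNF441 had 0.887 FPKM and 1.79 FPKM, a log2 ratio of 1.02 with an interval of 0.66 to 1.37. Both encode KRAB zinc finger proteins, with 15 and 14 fingers by a search of their coding sequences.

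The next members by size of the ratio were also KRAB genes. ZNF816 had 2.92 FPKM without siRNA and 5.56 FPKM with it (log2 ratio 0.93), and its locus is shared with other rows described below. ZNF85, a KRAB gene of the primate-expanded cluster next to the centromere, had 2.00 and 3.60 FPKM (0.85). ZNF136 had 2.80 and 4.58 FPKM (0.71). For all 3 the counting interval lay above 0, with lower ends of 0.67, 0.52 and 0.48.

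Another 7 members passed 1.5-fold with less. ZNF266 had the highest level of the 12, at 6.50 FPKM without siRNA and 10.4 FPKM with it (log2 ratio 0.68). ZNF222 had 2.51 and 3.94 FPKM (0.65), ZNF675 had 3.92 and 6.11 FPKM (0.64) and ZNF431 had 3.60 and 5.55 FPKM (0.63). Just inside the limit were ZNF225 at 2.23 and 3.42 FPKM (0.61), ZNF567 at 5.38 and 8.19 FPKM (0.61) and ZNF559 at 4.77 and 7.25 FPKM (0.61). Just outside it were ZNF44 at 1.94 and 2.89 FPKM (0.58), ZNF426 at 2.69 and 4.00 FPKM (0.57) and ZNF799 at 3.40 and 4.92 FPKM (0.53), so the limit cuts a continuous series of values. All 12 members past it had a KRAB A box and 8 to 17 fingers, and they lay in 6 of 16 groups separated by gaps of over 1 Mb. Most measured members were alike in this, as 115 of the 142 had the box. Only 23 of the 139 with a finger count had fewer than 8 fingers. Of the 12, 10 were alone at their locus.

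The 3 members at least 1.5-fold lower were a KRAB gene (ZNF177), a gene without the box (ZNF414) and a pseudogene (ZNF321P). ZNF414, a gene with 1 C2H2 finger by the search and no KRAB A box, had 5.43 FPKM without siRNA and 3.50 FPKM with it, a log2 ratio of -0.63 with a counting interval of -0.89 to -0.37. ZNF177 had 1.90 and 0.155 FPKM (log2 ratio -3.61), and ZNF321P had 2.14 and 1.05 FPKM (-1.03). Just outside the limit were ZNF787 at 11.0 and 7.75 FPKM (-0.50), ZNF524 at 3.76 and 2.80 FPKM (-0.42) and ZNF358 at 3.48 and 2.67 FPKM (-0.38), none with a KRAB A box.

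The values of ZNF177 and ZNF321P go together with those of rows at the same locus. ZNF177 lies downstream of ZNF559 on the same strand, and the table has a further row for transcripts that read through both genes. Summed over the 3 rows the locus had 7.45 FPKM without siRNA and 7.93 FPKM with it, a log2 ratio of 0.09, while ZNF559 alone was at 0.61 and ZNF177 at -3.61. The read-through row itself had 0.786 and 0.520 FPKM. At the locus of ZNF816 and ZNF321P, again with a read-through row, the sum was 6.23 and 7.06 FPKM, a log2 ratio of 0.18, while ZNF816 alone was at 0.93 and ZNF321P at -1.03. Of the 50-base stretches of the ZNF177 transcript, 76.6% also occur in another gene's transcript, and for ZNF321P 100%. How reads were divided between such rows was not tested, and the values of these 4 members are uncertain. Leaving out members at loci with other rows left 131 members, with a median log2 ratio of 0.24, 10 members at least 1.5-fold higher and 1 lower, ZNF414.

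Several members with a known role were measured, and they did not move as one. ZNF224, a KRAB protein that represses the aldolase A gene, had 5.32 and 6.82 FPKM (log2 ratio 0.36). ZNF274, which recruits SETDB1 to the 3′ ends of other zinc finger genes, had 5.26 and 6.38 FPKM (0.28). ZNF350 (ZBRK1), a partner of BRCA1, had 2.02 and 2.80 FPKM (0.47), and ZNF304, another KRAB gene, had 4.32 and 5.51 FPKM (0.35). The counting intervals of these 4 lay above 0. ZNF91, the silencer of SVA retrotransposons, had 2.81 and 2.82 FPKM (0.00), and ZNF254 had 1.54 and 1.30 FPKM (-0.25) with an interval of -0.59 to 0.09.

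Other members with a known role were near 0. ZNF93, which binds LINE-1 elements, was listed at 0 without siRNA and at 0.0188 FPKM with it. ZNF43 and ZNF208 of the same cluster were at most 0.00978 FPKM, and ZNF331, often silenced in gastrointestinal tumours, was at most 0.0275 FPKM. ZNF154, a gene whose promoter is methylated in many tumours, had 0.185 and 0.140 FPKM. ZNF382, ZNF420, ZNF536 and ZNF568 were listed at 0 in both libraries, and ZNF541 at 0 and 0.0358 FPKM. These levels allow no statement on a difference between the libraries.

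Members were then divided by the KRAB A box, which was found from the translated coding sequence. Of 237 members with a coding sequence, 201 had the box and 36 did not, and the other 9 were pseudogenes or long non-coding RNAs. The median number of fingers was 12, and ZNF208 had the most with 36. The boxes of the leading genes and of ZNF91 are shown because the box defines the groups compared below. All 12 members past 1.5-fold had it, and so did 115 of the 142 measured members. Coding strands are given 5′ to 3′ with GRCh37 positions, and each run lies within 1 coding exon of the gene's GENCODE transcript. It holds 39 codons, without the first codon of the box and without the last, which an intron separates in whole or in part from the rest. Codons in capitals encode the residue of a family consensus.
ZNF221, chr19:44469111-44469227, plus strand: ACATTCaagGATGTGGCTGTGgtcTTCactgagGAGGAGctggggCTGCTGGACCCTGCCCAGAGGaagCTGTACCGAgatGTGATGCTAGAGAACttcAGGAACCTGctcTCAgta
ZNF441, chr19:11888435-11888551, plus strand: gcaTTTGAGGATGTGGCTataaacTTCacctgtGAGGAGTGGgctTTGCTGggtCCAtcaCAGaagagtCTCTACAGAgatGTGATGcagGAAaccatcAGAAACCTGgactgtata
ZNF85, chr19:21116839-21116955, plus strand: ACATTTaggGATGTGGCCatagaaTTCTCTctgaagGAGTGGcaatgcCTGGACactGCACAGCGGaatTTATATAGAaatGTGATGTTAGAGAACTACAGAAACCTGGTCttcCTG
ZNF136, chr19:12296609-12296725, plus strand: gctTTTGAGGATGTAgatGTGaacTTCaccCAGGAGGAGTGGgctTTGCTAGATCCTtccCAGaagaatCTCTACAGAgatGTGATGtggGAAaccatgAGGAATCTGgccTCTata
ZNF91, chr19:23557441-23557557, minus strand: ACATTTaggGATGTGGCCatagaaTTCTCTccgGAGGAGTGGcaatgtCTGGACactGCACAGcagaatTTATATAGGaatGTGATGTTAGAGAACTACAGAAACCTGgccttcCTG
The boxes matched the consensus at 22 (ZNF441) to 28 (ZNF221 and ZNF85) of 39 residues. ZNF85 and ZNF91, which lie in the same cluster, shared 35 of 39 residues, and ZNF441 and ZNF136, which share another, 30 of 39. ZNF85 and ZNF136 shared 19. ZNF85 and ZNF91 thus had the most similar boxes of the 5, at log2 ratios of 0.85 and 0.00.

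Members with a KRAB A box were mostly higher with anti-APC siRNA, and members without one were divided. Of 115 measured members with the box, 97 were higher and 18 lower, with a median log2 ratio of 0.26 and a sum that went from 549 to 646 FPKM. Of 25 without it, 11 were higher and 14 lower, with a median of -0.05 and a sum of 285 and 295 FPKM. On other chromosomes, 85 zinc finger genes with the box had a median of 0.04, with 50 higher and 35 lower. The search also found the box in 3 measured chromosome 19 genes with other names, HKR1 at 4.21 and 3.77 FPKM (log2 ratio -0.16), ZFP112 at 2.10 and 1.94 FPKM (-0.11) and ZFP30 at 1.76 and 1.88 FPKM (0.09). All 3 were below the members' median, and ZFP30 lay between the members' quartiles.

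**Figure D3:**
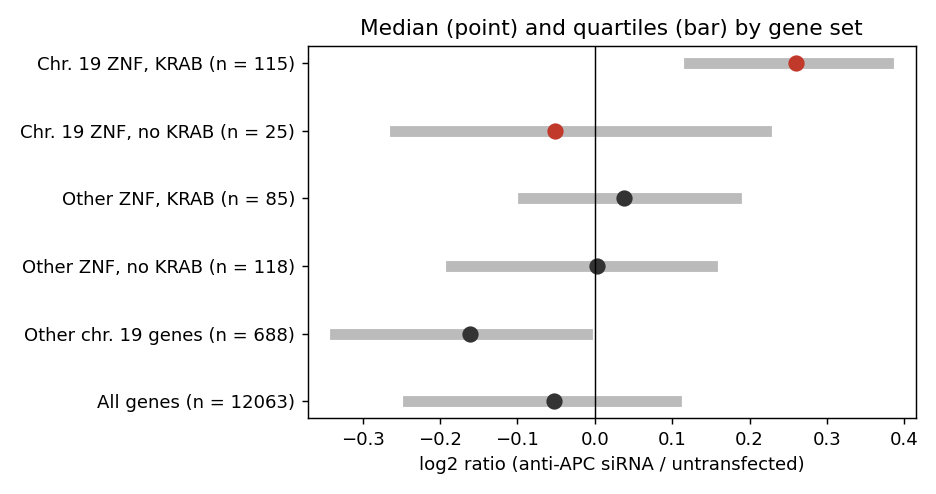
Median (point) and quartiles (bar) of the log2 ratio (anti-APC siRNA over untransfected) for genes with a mean of at least 1 FPKM, in sets given with their number of genes. The median of chromosome 19 zinc finger genes with a KRAB A box lies at 0.26, that of those without one at -0.05 and those of the other sets between -0.16 and 0.04.

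The finger arrays show how far the groups differ in base composition. The first finger of each coding sequence that ends in the common linker is shown for a pair of members that were higher and for ZNF787, which was lower. Each run has 81 bases, on GRCh37, with the codons of the cysteine and histidine zinc ligands in capitals.
ZNF221, chr19:44470336-44470416, plus strand: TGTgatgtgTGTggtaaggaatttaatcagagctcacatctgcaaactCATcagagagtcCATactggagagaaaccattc
ZNF85, chr19:21131930-21132010, plus strand: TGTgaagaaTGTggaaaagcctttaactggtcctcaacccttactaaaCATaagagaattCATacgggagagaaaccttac
ZNF787, chr19:56600175-56600255, minus strand: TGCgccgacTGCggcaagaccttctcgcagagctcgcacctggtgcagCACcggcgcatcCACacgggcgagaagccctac
The ligands are spaced alike in all 3, while the GC content of the run is 41.98% in ZNF221, 39.5% in ZNF85 and 67.9% in ZNF787. Over whole transcripts it was 44.7% in ZNF221, 36.4% in ZNF85 and 70.4% in ZNF787. The median GC content of whole transcripts was 42.4% for measured members with a KRAB A box, 62.3% for those without and 48.3% for all measured rows. The 3 examples thus do not stand for these groups.

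GC content moved with the log2 ratio across the whole table. Spearman's rho between the log2 ratio and transcript GC was -0.36 over 11410 rows and -0.34 over the 142 members, as a description of values that share the same 2 libraries. Below 50% GC, 101 of 118 members were higher (median 0.26), and at 50% or more 8 of 24 (median -0.11). Without a KRAB A box, 7 of 8 members below 50% GC were higher, with a median of 0.23 next to 0.27 for 108 KRAB members in that range. The 17 members without the box at 50% GC or more had a median of -0.18, with 4 higher. Among them 9 lie close together near the end of the long arm, from ZNF628 to ZNF444, a run noticed after the values were seen. In it 7 were lower, among them ZNF787, ZNF524 and ZNF580 (14.9 and 11.6 FPKM, log2 ratio -0.36), which overlaps ZNF581. ZNF784 (1.84 and 2.34 FPKM, 0.35) and ZNF579 (3.74 and 4.32 FPKM, 0.21) were higher. At 50% GC or more the 7 members with the box had a median of 0.16, with 4 higher. Beside the 200 other genes nearest in GC content, the median difference was 0.26 for members with the box and 0.11 for those without. Members with and without the box were thus close below 50% GC and farther apart at 50% or more, where few genes had the box. In that upper range the median GC content was 55.2% for members with the box and 66.0% for those without. The groups there were thus not of like GC content, and their difference cannot be assigned to the box.

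Beside other genes of like GC content the members' medians still lay higher up to 60% GC, with few members above 50%. Between 50% and 55% there were 4 members, with a median of 0.25 beside -0.09 for other genes. Between 55% and 60% there were 4, of which 2 were lower, with a median of 0.05 beside -0.14. Between 38% and 42% GC the median log2 ratio was 0.31 for 44 members and 0.04 for other genes, and between 42% and 46% it was 0.25 for 47 members and 0.01 for other genes. At 65% or more it was -0.26 for 10 members and -0.28 for other genes. Beside the 200 other genes nearest in GC content, 113 members were above the neighbours' median and 29 below, with a median difference of 0.23, against 0.36 for neighbours in level. Of 66 KRAB genes on other chromosomes below 50% GC 44 were higher, with a median of 0.11, beside 93 of 108 KRAB members, with a median of 0.27. Below 38% GC the medians were 0.18 for 11 such genes and 0.35 for 13 KRAB members, between 38% and 42% they were 0.09 and 0.31, and between 42% and 46% they were 0.03 and 0.22. The part that GC content had in the result was not tested.

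**Figure D4:**
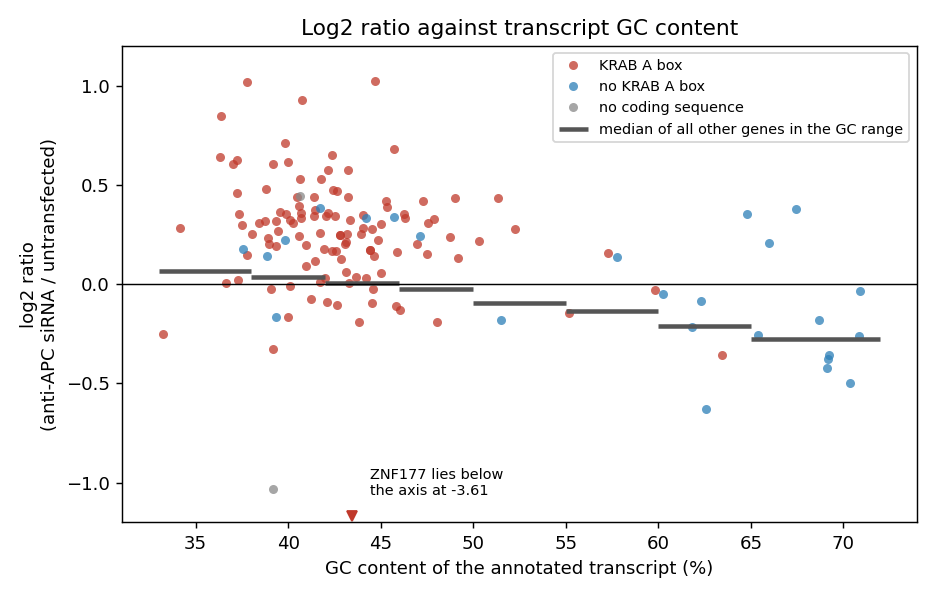
Log2 ratio (anti-APC siRNA over untransfected) of the 142 members against the GC content of their annotated transcripts in percent, coloured by KRAB A box, with the median of all other genes in each GC range as grey bars. Below 50% GC most points lie above the bars and above 0, at 65% GC or more they lie around the bar at -0.28, and ZNF177 is drawn at the lower edge because its value is -3.61.

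The number of fingers and the similarity between members were also compared with the ratio. The median log2 ratio was -0.18 for 23 members with fewer than 8 fingers, 0.25 for 53 with 8 to 12 and 0.28 for 63 with 13 or more. Among KRAB members the medians were -0.09 (12 genes), 0.27 (45 genes) and 0.31 (57 genes). Over all members those with few fingers had a higher GC content, with a median of 51.5% against 42.4% and 42.1%. Among KRAB members the median GC content was 43.6%, 42.4% and 42.01% in the same order. ZNF177 is among the 12 KRAB members with fewer than 8 fingers. The part that GC content had in the trend with finger number was not tested. Read sharing between similar genes showed no such trend, with medians of 0.24 for 50 members with under 1% of their 50-base stretches in another gene's transcript, 0.25 for 50 members with 1% to 10% and 0.22 for 42 with 10% or more. Beside ZNF177 and ZNF321P, the measured members named above that shared 10% or more were ZNF224 (48.1%), ZNF799 (47.7%), ZNF358 (25.1%), ZNF579 (20.6%), ZNF222 (20.4%), ZNF816 (14.7%) and ZNF544 (11.6%), and their values are uncertain where reads fall in those stretches.

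Along the chromosome the members formed 16 groups separated by gaps of over 1 Mb, and all 7 groups with at least 10 measured members had a median above 0. In the group at 11.59 to 12.74 Mb (hg19) 13 of 27 members were measured, with a median log2 ratio of 0.34 and 11 higher, among them ZNF441, ZNF136, ZNF44 and ZNF799. At 44.04 to 45.58 Mb 15 of 23 were measured, with a median of 0.33 and 13 higher, among them ZNF221, ZNF222, ZNF224 and ZNF225. At 19.78 to 24.31 Mb, the cluster of ZNF85, ZNF91, ZNF431 and ZNF675, 12 of 33 were measured, with a median of 0.32 and 11 higher. At least 1.5-fold higher were 2 of the 13, 3 of the 15 and 3 of the 12, beside 12 of all 142 measured members. These 3 groups are given first because their medians were highest, so these counts are not separate from the medians.

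The other large groups had smaller medians. They were 0.30 over 25 measured members at 52.07 to 54.08 Mb, 0.22 over 14 at 7.07 to 9.88 Mb, 0.20 over 39 at 55.99 to 58.99 Mb and 0.15 over 10 at 36.67 to 38.27 Mb, where ZNF146 and ZNF567 lie. The group at 55.99 to 58.99 Mb was the largest, with 59 members, and none of its measured members passed 1.5-fold in either direction. Within each of the 7 large groups more members were higher than lower. The group at 35.17 to 35.45 Mb had 4 measured members and a median of -0.02, with 2 higher and 2 lower.

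**Figure D5:**
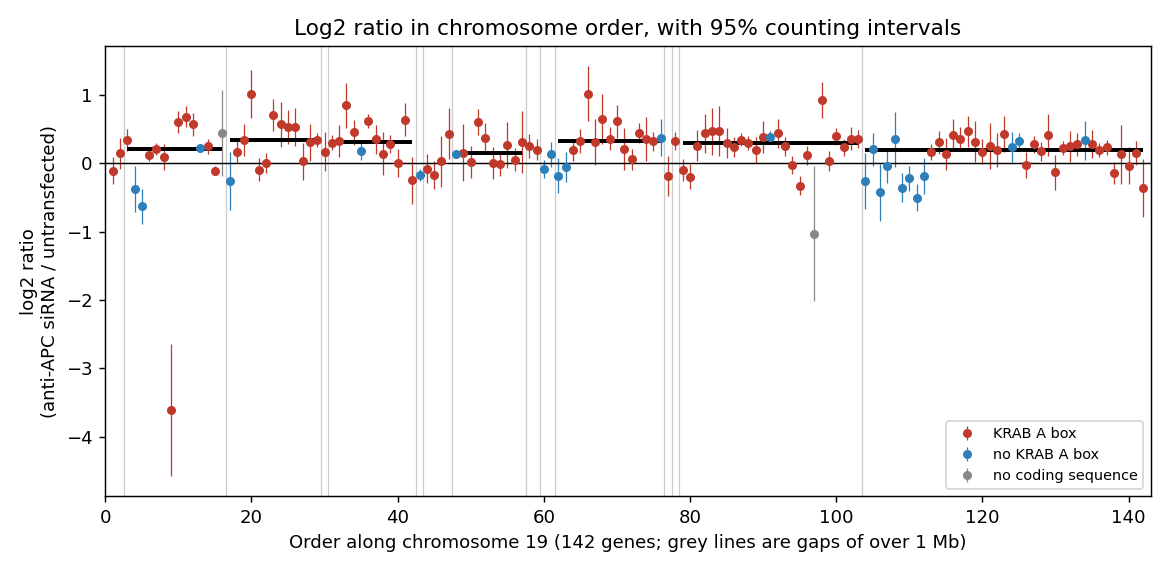
Log2 ratio (anti-APC siRNA over untransfected) of the 142 members in their order along chromosome 19, coloured by KRAB A box, with bars for approximate 95% counting intervals, grey lines at gaps of over 1 Mb and black lines at the median of groups with at least 10 measured members. The 7 black lines lie between 0.15 and 0.34, and the lowest point is ZNF177 at -3.61.

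Counting error was small beside part of these differences. By the estimated read numbers, 80 of 142 members (56.3%) were higher by over 2 counting errors, against 24.0% of 11410 rows, and 11 (7.75%) were lower, against 36.7%. The median counting error of a member's log2 ratio was 0.11. It does not hold the spread between cultures or libraries, which 1 library per condition does not show.

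Most co-repressors that act with KRAB proteins were close to equal levels in both libraries. Of 21 listed genes 20 were found and 19 had a mean of at least 1 FPKM, 9 of them higher and 10 lower. None passed 1.5-fold, a difference that 2.56% of all rows passed upward and 6.61% downward. At those shares few of 19 genes would pass. TRIM28, the direct partner of the KRAB domain, had 352 FPKM without siRNA and 340 FPKM with it (log2 ratio -0.05). SETDB1, the histone H3 lysine 9 methyltransferase that TRIM28 recruits, had 16.8 and 16.7 FPKM (-0.01), and the heterochromatin protein genes CBX1, CBX3 and CBX5 were at 0.15, -0.01 and -0.12. The rows of EHMT2 and DAXX lie on alternate haplotype sequences of chromosome 6 and have no counting error here. The list ran from -0.22 for EHMT2 to 0.34 for ATF7IP, the SETDB1 cofactor, at 14.8 and 18.7 FPKM. Its median was -0.01, beside -0.05 for all rows and 0.24 for the members.

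The promoters of the members were compared with all promoters of the RefSeq table (build GRCh38.p14), from 250 bases before to 50 after the start. A promoter was found for 209 of 246 members and 126 of the 142 measured. The 250 bases before the start are printed for ZNF85, which was higher, and ZNF787, which was lower, with CpG dinucleotides in capitals, since the pair differs widely in CpG content.
ZNF85, chr19:20923001-20923250, plus strand: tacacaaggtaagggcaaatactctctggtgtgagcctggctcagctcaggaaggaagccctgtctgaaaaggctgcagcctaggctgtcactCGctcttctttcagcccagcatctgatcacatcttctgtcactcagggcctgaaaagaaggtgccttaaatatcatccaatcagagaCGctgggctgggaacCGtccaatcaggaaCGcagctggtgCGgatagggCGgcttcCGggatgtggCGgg
ZNF787, chr19:56121296-56121545, minus strand: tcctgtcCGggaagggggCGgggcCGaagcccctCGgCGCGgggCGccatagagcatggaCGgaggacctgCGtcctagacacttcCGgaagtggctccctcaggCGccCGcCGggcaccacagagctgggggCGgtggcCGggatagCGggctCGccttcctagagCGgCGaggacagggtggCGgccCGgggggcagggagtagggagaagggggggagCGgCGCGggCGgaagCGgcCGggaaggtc
The stretch holds 8 CpG in ZNF85 and 27 in ZNF787. Over the full window of 300 bases the median was 20 CpG for KRAB members that were measured, 24 for those without the box and 14 for all 35116 promoters. By direction it was 20 for 99 measured members that were higher and 28 for 27 that were lower. ZNF85 had 9 and ZNF787 had 32 in that window, so the printed pair lies farther apart than these medians. The letters CTTTGAA or CTTTGAT, a core of TCF/LEF sites, stood on either strand in 8 of 126 measured members' promoters (6.35%), against 6.86% of all promoters. The AP-1 letters TGANTCA stood in 11 (8.73%), against 7.71% of all promoters, and the patterns can overlap in the letters TGA. Of the 12 members past 1.5-fold 10 had a promoter in the table, ZNF441 with the TCF/LEF letters and ZNF222 with the AP-1 letters. The shares in the members were close to those in all promoters.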

How the data were processed

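RNA from HCT-116 cells was sequenced in 3 single-read libraries, 1 for each condition, and the deposited table held 2 of them. Per the study's methods, the authors used Cufflinks to place reads on transcripts and Cuffdiff to compute FPKM, and the labels give hg19. The aligner, the annotation, the versions and the use of strand are not given in the sources used here. The authors' comparison columns (log fold change, test statistic, p, q and a call) were not used. FPKM corrects for length and depth but not for GC content, and reads shared by similar genes are divided by estimation.

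The log2 ratio of anti-APC siRNA over untransfected was computed with no pseudocount over rows above 0 in both libraries and with a mean of at least 1 FPKM. A difference of 1.5-fold was used for naming genes. With 1 library per condition no test was made, and medians and counts are set beside those of all rows. Each member was also set beside the 200 other rows nearest in mean FPKM, GC content or transcript length. The named genes were the 5 highest members, members at least 1.5-fold apart (up to 12 each way), those just inside and just outside that limit, members with a known role, co-repressors and APC. The members and lists were chosen with earlier results of these data known.

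Among 2819 rows with a mean under 0.3 FPKM, ratios piled up at the values of whole reads (400 rows at equal read numbers in both libraries). These steps gave the approximate depth, read numbers and counting errors, which cover counting error only and leave out the division of reads between genes. Transcript GC content, length, 50-base stretches and coding sequences came from GENCODE 44 on GRCh37, the build of hg19, with 1 transcript per gene. All 246 members were matched, 3 by an older symbol, and 11410 of 12063 measured rows had GC content. The KRAB A box was called from at least 15 of 41 consensus residues in the translated coding sequence (members had 15 to 34 or at most 9) and fingers from the spacing of cysteines and histidines. This grouping by translated sequence was chosen after the data were seen. The finger count of ZNF274 was left out because its lifted reading frame is broken. Python 3.11.15 with numpy 2.4.6, pandas 2.3.3 and scipy 1.17.1 was used. The difference from neighbours in level and the size of 1 read were tested on simulated data, and the other steps were not.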

Additional observations from a re-analysis of the deposited data

How the results depend on the processing

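The median log2 ratio of the members was 0.24 and kept its sign under all 9 alternatives, from 0.18 with 1 FPKM added to both values to 0.29 after the median of all rows was subtracted. The share of members lower with anti-APC siRNA, 23.2%, was 31.4% with no limit on the mean and between 19.01% and 25.3% under the others. The median difference from neighbours in level, 0.36, was 0.28 with 1 FPKM added, 0.43 with neighbours from chromosome 19 alone, 0.23 with neighbours in GC content and 0.27 with neighbours in transcript length, and stayed between 0.32 and 0.38 under the other 10 alternatives. The 12 members at least 1.5-fold higher became 4 with 1 FPKM added, 22 with no limit on the mean, 50 at a difference of 25% and 2 at 2-fold. The 3 members at least 1.5-fold lower became 18 with no limit on the mean, 9 at a difference of 20%, and 1 with a mean of at least 2 FPKM, with loci of 1 row, without loci shared between zinc finger rows, or without members that share 10% or more of their 50-base stretches. The neighbours in GC content and length and the limit on shared stretches were chosen after the data were seen.

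With 1 library per condition no replicate could be left out and no test could be run. No paired analysis was possible because no condition had a second library and no test was made. Below 1 FPKM many of the members' ratios rest on few reads, though not all, as ZNF850 had about 146 and 193 reads. From 0.5 to 1 FPKM 5 of 8 members were lower. Once members below 1 FPKM are counted, 22 of 204 members were past 1.5-fold higher and 18 lower. Direction was read only above the limit of 1 FPKM. The median log2 ratio of all rows was -0.05, and ratios are not corrected for it unless stated.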
